A study of Arabidopsis thaliana with 16 samples.

Results

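Pollen tubes of the Arabidopsis thaliana mutant paps1-1 were compared between 2 ways of starting cDNA synthesis, oligo(dT) priming and random-hexamer priming, over 8 of the 16 libraries of the series. The libraries were chosen by their labels alone, as all those of the mutant. They form 4 pairs, since each RNA sample was divided between a library made with oligo(dT) primers alone and a library made with random hexamers alone. The paps1-1 mutant carries a missense allele of PAPS1 (AT1G17980), which encodes a nuclear poly(A) polymerase, so its plants make the enzyme in an altered form and are no null mutant. The other 8 libraries, 4 per priming method, came from wild-type tubes (WT), and both genotypes are labelled Col-0. All tubes were grown semi-in vivo, that is, they grew out of a cut pistil before collection, and all libraries of both kinds went through a step that depletes ribosomal RNA. Whether the RNA samples came from different batches of plants is not in the labels. The p-values cover the spread among these 4 pairs, and part of it may be technical.

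Poly(A) polymerases add the adenosine tail to the 3′ end of a cleaved pre-mRNA, and the tail supports export, translation and stability of the mRNA. Oligo(dT) primers anneal to that tail, or to a run of adenosines inside a transcript, and copy inwards from it, whereas random hexamers start along the whole RNA. A transcript's level with oligo(dT) relative to random hexamers therefore depends on its tail, its length and its integrity, and the series' title names tail length as the purpose of the paired libraries. RNAs made without a tail, such as ribosomal and spliceosomal RNAs, are the textbook case of transcripts that oligo(dT) passes over. All fold changes are the level with oligo(dT) over that with random hexamers, on a log2 scale, and a negative value means a lower share of reads with oligo(dT).

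Reads assigned to genes numbered 2896980, 4483949, 718090 and 568602 in oligo(dT) libraries 1 to 4 of paps1-1, against 5294715, 3332503, 711099 and 1733937 in the random-hexamer libraries. Unmapped reads made up 66.4% to 90.9% of reads with oligo(dT) and 22.9% to 44.1% with random hexamers. Oligo(dT) library 4 stood apart from the other 3, with 11.6% of its mapped reads in genes (76.2% to 86.9% in the others) and 19.9% of its gene-overlapping reads on the strand opposite to the gene (4.80% to 5.61% in the others). A single-library count of 0 allows a level of up to 0.567 to 5.28 CPM (counts scaled to a common library total of gene counts), the worth of 3 counts, and this limit covers counting error only. Per-library levels are given as CPM divided by TMM factors (normalised CPM), which assume that most well-measured genes do not differ between libraries. The 2 kinds of library did not line up here: the median log2 fold change over all genes tested was -2.41 with the factors and -1.83 without. The factors lowered oligo(dT) levels relative to random-hexamer levels by 0.47, 0.14, 1.00 and 1.07 on the log2 scale in pairs 1 to 4.

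PAPS1 itself was detected in all 8 libraries. It stood at 58.5, 62.5, 162 and 49.2 normalised CPM with oligo(dT), against 243, 78.4, 81.7 and 283 with random hexamers in replicates 1 to 4, so the groups overlapped. Its log2 fold change was -1.01 ± 1.27 (SE, n = 4 pairs; edgeR adjusted p = 0.700). A missense allele leaves the transcript in place, so this level does not check the genotype label. The other poly(A) polymerase genes did not pass the threshold either, with log2 fold changes of 0.49 for PAPS2 (AT2G25850), -3.12 for PAPS3 (AT3G06560), which codes for an enzyme without the C-terminal domain of the nuclear ones, and 0.17 for PAPS4 (AT4G32850). The value of PAPS4 has no stable sign, since it was -0.00 without replicate 2. Pollen-tube identity was plain in both kinds of library: VGD1 (AT2G47040), a pectin methylesterase of pollen, was the gene with the most counts in each of the 4 oligo(dT) libraries, and LRX8 (AT3G19020), a pollen leucine-rich repeat extensin, in random-hexamer libraries 1, 2 and 4.

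Oligo(dT) libraries detected fewer genes. They held 12266, 14241, 5424 and 5906 genes with at least 1 count, against 17549, 17736, 16839 and 15962 in their random-hexamer partners. The mean difference was -7562 genes, lower in 4 of 4 pairs, and -6971 when all libraries were thinned to 568602 counts. The exact paired permutation test gave p = 0.125, the smallest value that 4 pairs allow (two-sided). Among 3673 genes with a mean of at least 50 CPM, 181, 81, 1005 and 1224 had no count with oligo(dT), against 35, 30, 52 and 59 with random hexamers. The oligo(dT) libraries of replicates 3 and 4 thus lacked many transcripts that the random-hexamer library of the same RNA held, and fold changes in pairs 3 and 4 rest on fewer transcripts.

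**Figure D1:**
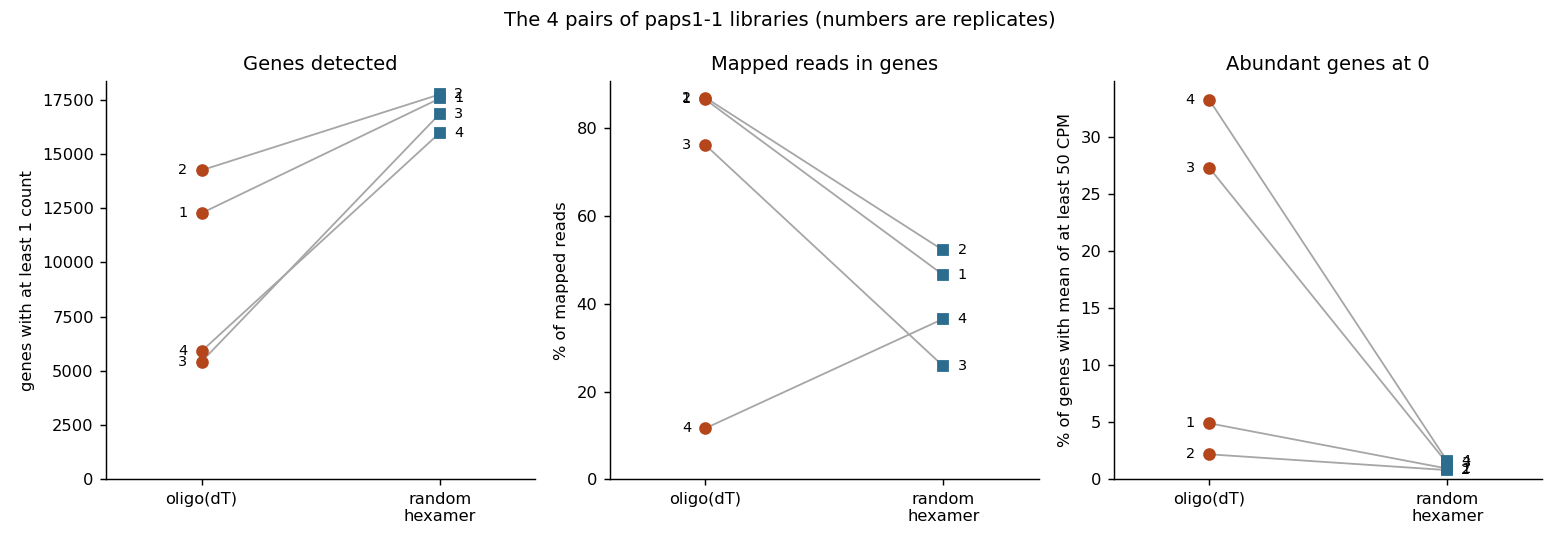
Genes with at least 1 count, share of mapped reads in genes (%) and share of the 3673 abundant genes with no count (%) in the 8 paps1-1 libraries, oligo(dT) as circles and random hexamer as squares, with lines joining the libraries of an RNA sample. Oligo(dT) libraries 3 and 4 detected 5424 and 5906 genes and lie furthest below their random-hexamer partners.

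Across 12556 genes tested, 278 (2.21%) passed the threshold of an adjusted p under 0.05 (edgeR quasi-likelihood test with the RNA sample as block). Of these, 22 (0.175%) were higher with oligo(dT) and 256 (2.04%) lower, and 21 and 255 of them had the same sign in 4 of 4 pairs. Called genes were more abundant: mean CPM had a median of 671 in those higher and 215 in those lower, against 27.7 in those not past. The shares called over all genes, given beside gene groups below, are thus not matched for level. The median log2 fold change over all genes tested was -2.41, so most transcripts tested had a lower share of reads with oligo(dT). That median moved with the genes, scaling and libraries of the fit. It was -0.67 when the 3673 genes with a mean of at least 50 CPM were fitted alone, with TMM factors of their own. It was -0.78 without the pairing and -0.86 in replicates 1 and 2 alone. Without TMM factors it was -1.83, and 94 genes were higher and 168 lower, so the split between directions depends on the scaling: 35.9% of calls were higher without factors, 23.5% with upper-quartile factors and 7.91% with TMM. The 22 genes called higher were also called higher under each of these scalings. Replicate 1 carried most of the calls: without it 1 gene was higher and 26 lower, and without replicate 2, 5 were higher and 70 lower. Without replicate 4, whose oligo(dT) library stood apart, 55 were higher and 198 lower. The shared spread was large, with a common dispersion of 1.89, and edgeR treated it as the same for all genes of a level, which makes the smallest adjusted p-values very small. limma, whose moderated spread was likewise the same for all genes of a level, called 90 genes higher and 2101 lower, among them all 278, which is 0.717% and 16.7% of the genes tested. With the spread of each gene alone, limma called 9 genes higher and 190 lower (0.0717% and 1.51%), and these shared 0 of the 22 and 32 of the 256 genes called by edgeR. The calls on single genes given here therefore rest on a shared spread, and the values of each library and pair are given beside them. DESeq2 called 145 higher and 3349 lower (1.15% and 26.7%).

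The transcript that gained most clearly under oligo(dT) was AGP23 (AT3G57690, chromosome 3), which encodes an arabinogalactan peptide of the pollen cell surface. It stood at 42004, 11855, 5728 and 10372 normalised CPM with oligo(dT), against 1446, 344, 273 and 843 with random hexamers in replicates 1 to 4. Every oligo(dT) library lay above every random-hexamer library, a separation that 1.19% of the genes tested had in this direction and 16.0% in the other, and within pairs the ratio was 12.3 to 34.4. The log2 fold change was 4.50 ± 0.25 (SE, n = 4 pairs; edgeR adjusted p = 1.36e-65), and it kept its direction under all 16 alternatives tried and its call under 15 of them. AGP23 AT3G57690 missed the threshold when limma used the spread of each gene alone (adjusted p = 0.0512). The product is tiny: the coding sequence below holds 186 bases for 61 residues, and its longest run of A is 2 bases. RALFL7, a secreted RALF-like peptide (AT1G60815, chromosome 1), and AT2G40205 and AT3G56020 (chromosomes 2 and 3), which encode ribosomal protein L41, are shown with it because they were among the shortest genes called higher. The L41 copies differ at 3 of 78 coding bases. Coding sequences are from RefSeq TAIR10.1, 5′ to 3′, with start and stop codons in capitals.
AGP23: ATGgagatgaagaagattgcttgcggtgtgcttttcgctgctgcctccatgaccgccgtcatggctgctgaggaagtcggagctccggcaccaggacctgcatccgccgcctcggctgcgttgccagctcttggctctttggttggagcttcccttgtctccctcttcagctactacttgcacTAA
AT2G40205: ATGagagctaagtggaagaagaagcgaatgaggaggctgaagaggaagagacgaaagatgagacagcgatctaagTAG
AT3G56020: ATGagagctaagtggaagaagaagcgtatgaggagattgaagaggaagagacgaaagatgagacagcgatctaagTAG
RALFL7: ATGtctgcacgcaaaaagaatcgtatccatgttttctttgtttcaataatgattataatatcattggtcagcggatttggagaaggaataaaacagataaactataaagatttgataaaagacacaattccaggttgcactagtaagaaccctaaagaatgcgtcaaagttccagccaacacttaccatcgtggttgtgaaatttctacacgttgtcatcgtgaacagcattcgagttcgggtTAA

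Most of the other leading genes higher with oligo(dT) were short, and several of them have no described function. AT2G35765 (455 bases, uncharacterised) stood at 12114, 3639, 2156 and 3196 normalised CPM with oligo(dT), against 929.5, 373, 212 and 882 with random hexamers. AT4G14315 (495 bases, uncharacterised) had 2115, 806, 501 and 345 normalised CPM with oligo(dT), against 23.0, 0, 2.97 and 21.8 with random hexamers, a log2 fold change of 7.05 ± 0.97. Neither gene's groups overlapped, as in 1.19% of all genes tested in this direction. AT2G41905 (682 bases, uncharacterised) had 14274, 4189, 2279 and 3488 normalised CPM with oligo(dT), against 2207, 598, 508 and 1618 with random hexamers. AT5G26692 (677 bases, annotated as a putative membrane lipoprotein) stood 3.74 to 7.59 times higher with oligo(dT) in the 4 pairs, and shares 158 of 653 stretches of 25 bases with AT5G26717, so the counting could split their reads. BCP1 (AT1G24520, an arabinogalactan protein of pollen known from Brassica) had 14252, 4896, 2448 and 4431 normalised CPM with oligo(dT), against 4897, 1650.0, 1050.2 and 3524 with random hexamers, and these groups overlapped although each pair went the same way. Its log2 fold change was 1.17 ± 0.29 (edgeR adjusted p = 0.00641). Without replicate 1, 11 of the 12 leading genes in this direction lost the call and kept their sign, and AGP23 kept both.

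**Figure D2:**
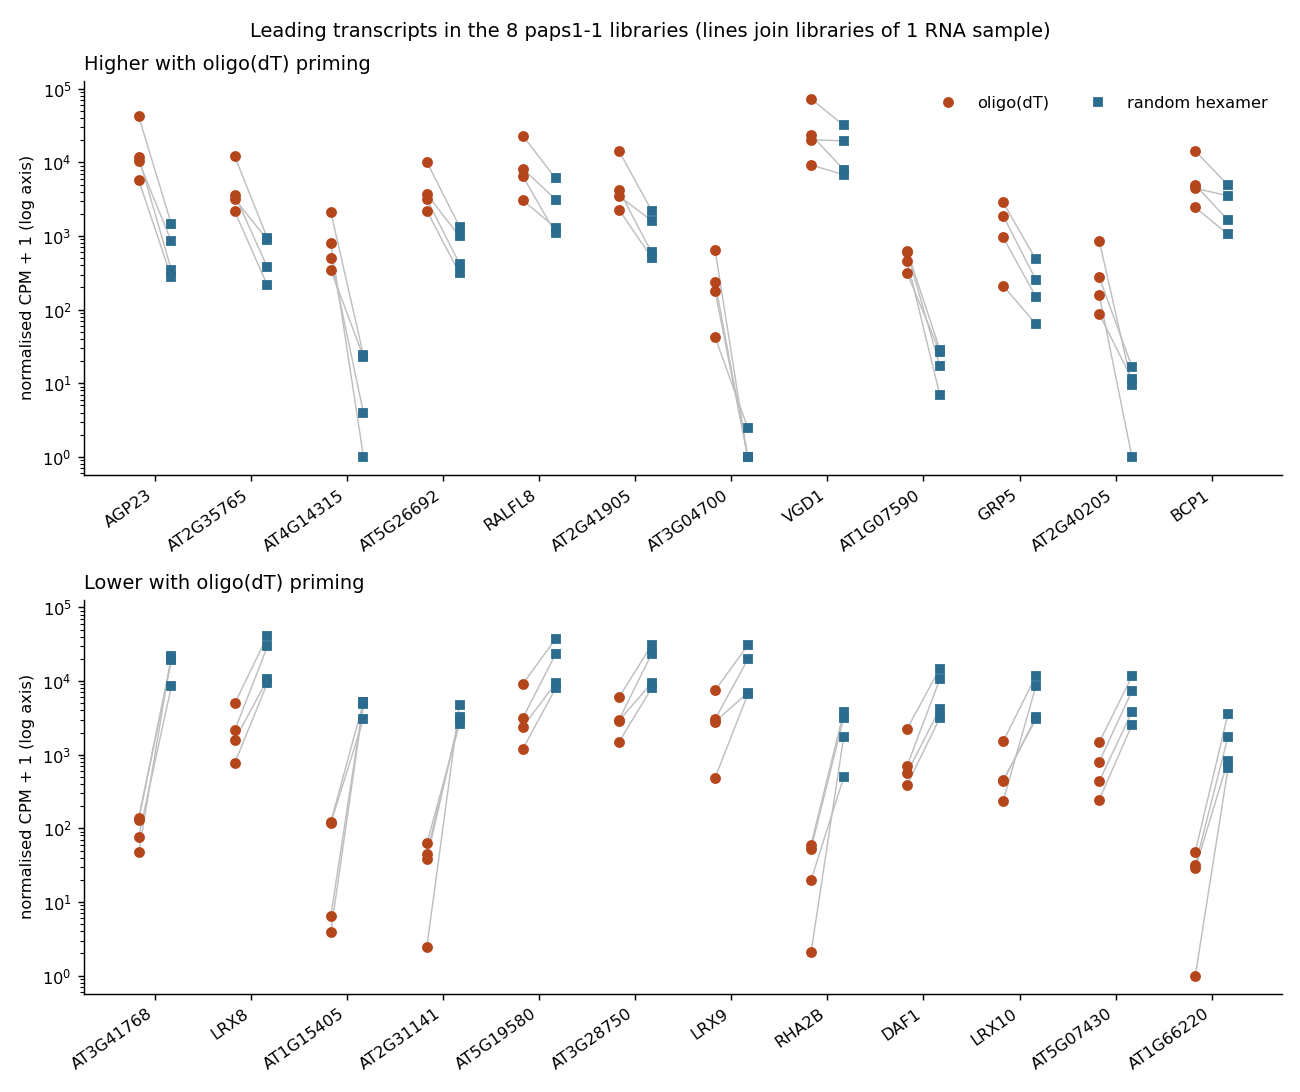
Normalised CPM + 1 (log axis) of the 12 genes of smallest p in each direction, oligo(dT) as circles left of random hexamer as squares, with lines joining the 2 libraries of an RNA sample. With oligo(dT), AGP23 lies at 5728 to 42004 and the 18S rRNA gene AT3G41768 at 46.2 to 137.

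RALF peptides, secreted cysteine-rich signals that bind receptor kinases and cell wall extensins, included 3 genes higher with oligo(dT) and 0 lower among the 18 of 34 that were tested, where 0.175% of all genes tested were higher and 2.04% lower. These shares are over genes of all levels and lengths, and the tested RALF genes had a median transcript length of 616 bases. Of 364 protein-coding genes of 246 to 858 bases with a mean of at least 50 CPM, 18 were higher and 8 lower, with a median of 0.88. With a mean of at least 200 CPM, 12 of 59 genes of 246 to 750 bases were higher and 4 lower, with a median of 1.28. The values of the RALF genes were thus not separated from their short length. The median log2 fold change of the RALF genes was 0.72, beside -2.41 over all genes tested. When genes with a mean of at least 50 CPM were fitted alone it was 1.5, beside -0.67. RALFL8 (AT1G61563) had 22989, 6475, 3047 and 8201 normalised CPM with oligo(dT), against 6056, 1083, 1294 and 3128 with random hexamers, a log2 fold change of 1.78 ± 0.26 (edgeR adjusted p = 3.39e-09). It shares 84 of 504 stretches of 25 bases with AT1G61566 and overlaps AT1G61565 on the opposite strand by 374 bases. Libraries of replicate 1 were highest with both primers, so the groups overlapped while the ratio within pairs was 2.35 to 5.98. RALFL15 (AT2G22055) was higher with a log2 fold change of 1.53 ± 0.42. RALFL7 stood at 689.9, 173, 66.0 and 202 normalised CPM with oligo(dT), against 58.9, 0, 0 and 14.3 with random hexamers. RALF4 (AT1G28270) and RALF19 (AT2G33775), ligands that keep the growing tube intact, did not pass the threshold, at log2 fold changes of 1.35 ± 0.77 and 0.84 ± 0.40 (edgeR adjusted p = 0.389 and 0.294). Arabinogalactan proteins are heavily glycosylated proteins of the cell surface. The 18 tested of 30 had a median transcript length of 833.5 bases and a median log2 fold change of 0.23. Likewise 3 of them were higher and 0 lower. Besides AGP23 these were AGP12 (AT3G13520), at 832, 1909, 396 and 386 normalised CPM with oligo(dT) against 65.3, 132, 60.9 and 115 with random hexamers, and AGP24 (AT5G40730), at a log2 fold change of 1.69 ± 0.46. Both families were chosen after their leading genes had been seen. Without replicate 1, 0 RALF genes and 1 arabinogalactan gene were called, and the medians were 0.40 and -0.16.

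Of the 5 genes that RefSeq describes as ribosomal protein L41, the smallest protein of the ribosome, 2 were called higher with oligo(dT) and 3 did not pass the threshold. AT2G40205 had 157, 864, 86.5 and 273 normalised CPM with oligo(dT), against 0, 8.39, 10.4 and 15.8 with random hexamers, and AT3G56020 a log2 fold change of 5.39 ± 1.49. AT1G56045, AT3G08520 and AT3G11120 stood at 4.21 ± 2.06, 2.16 ± 1.55 and 0.76 ± 2.09. AT3G56020 shares 46 of 498 stretches of 25 bases with AT3G08520, and random-hexamer levels near the floor make the size of the fold uncertain. AT2G40205 overlaps AT2G40200 on the opposite strand by 202 bases. Other genes called higher were AT1G30974, annotated as a thionin, at 3.43 ± 0.92 (with 117 of 333 stretches of 25 bases shared with AT1G30972, so its count is uncertain), TPX2 (AT1G65970), a thioredoxin-dependent peroxidase, at 1.28 ± 0.34, and LCR69 (AT2G02100), a defensin-like protein, at 3.18 ± 0.90 with 3 of 4 pairs higher. GRP5 (AT3G20470), a glycine-rich protein, had 1878, 2852, 954 and 209 normalised CPM with oligo(dT), against 253, 479, 149 and 63.3 with random hexamers. TPX2 shares 239 of 713 stretches of 25 bases with AT1G60740, so its count is uncertain.

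Few long transcripts were higher with oligo(dT). VGD1 (2258 bases) stood at 72701, 23491, 9224 and 20263 normalised CPM with oligo(dT), against 31793, 7980.4, 6790.1 and 19596 with random hexamers, and its log2 fold change of 0.81 ± 0.15 (edgeR adjusted p = 2.78e-05) rested on ratios of 1.03 to 2.94 within pairs. The lowest of these ratios was that of replicate 4. Its neighbours and relatives VGDH1 (AT2G47030) and AT2G47050, which share stretches of sequence with it, did not pass the threshold, at 0.29 ± 0.26 and 0.22 ± 0.27, and the last was -0.02 without replicate 2. AT1G07590 (2407 bases, annotated as a tetratricopeptide repeat protein) had 605, 628, 459.8 and 312 normalised CPM with oligo(dT), against 16.2, 27.7, 5.94 and 25.6 with random hexamers, but overlaps AT1G07600 on the same strand by 418 bases and shares 175 stretches of 25 bases with AT5G56795, so its reads cannot be told from theirs with certainty. AT3G04700 (1073 bases, annotated as a carboxylate clamp-TPR protein) had 653, 179.8, 41.8 and 236 normalised CPM with oligo(dT), against 0, 0, 1.49 and 0 with random hexamers, where 1 count in all was found; the ratio of pooled counts was 2337 (95% counting interval 419 to 92342). It overlaps AT3G04710 on the same strand and, by 278 bases, the receptor kinase gene ANX1 on the other strand in the RefSeq annotation, and the part these play was not tested.

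Most genes lower with oligo(dT) were protein-coding, 242 of 256, but the gene of smallest p was an 18S ribosomal RNA gene. This gene, AT3G41768, had 137, 76.4, 46.2 and 129 normalised CPM with oligo(dT), against 19809, 8519, 22226 and 19442 with random hexamers, a log2 fold change of -7.50 ± 0.30, and was 111 to 481 times lower within pairs. Its copy AT2G01010 fell as well, at -8.68 ± 1.3, but the copies share 1734 of 1784 stretches of 25 bases, and both libraries of a pair had been depleted of ribosomal RNA, so their absolute levels carry little weight. All 4 rRNA genes tested had negative values, and 2 passed the threshold. Over all classes, 10493 of 12556 genes tested were negative and 2.04% were called lower. Of 5 spliceosomal snRNAs tested, U12 (AT1G61275), an RNA of the minor spliceosome, had 18.3, 0, 0 and 0 normalised CPM with oligo(dT), against 150.4, 140.3, 32.7 and 270.4 with random hexamers. U1.5 (AT1G08115), a U1 snRNA, had 38.8, 0, 0 and 0 normalised CPM with oligo(dT), against 274, 127, 294 and 1414 with random hexamers, and both passed the threshold as lower. The U2 snRNAs did not pass, with log2 fold changes of 2.31, 5.98 and -0.22 for U2.2, U2.5 and U2.7. AT1G15405, a noncoding RNA of 292 bases on chromosome 1 with no named function in RefSeq, had 122, 117, 2.93 and 5.47 normalised CPM with oligo(dT), against 5156, 3059.7, 4853 and 5231 with random hexamers. It is annotated inside AT1G05163 on the same strand. The transcripts of AT1G15405 and U12 (chromosome 1, 175 bases) are given because they were lower with oligo(dT) at a small length; they are from RefSeq TAIR10.1, 5′ to 3′, with the first of the longest runs of A in capitals.
AT1G15405: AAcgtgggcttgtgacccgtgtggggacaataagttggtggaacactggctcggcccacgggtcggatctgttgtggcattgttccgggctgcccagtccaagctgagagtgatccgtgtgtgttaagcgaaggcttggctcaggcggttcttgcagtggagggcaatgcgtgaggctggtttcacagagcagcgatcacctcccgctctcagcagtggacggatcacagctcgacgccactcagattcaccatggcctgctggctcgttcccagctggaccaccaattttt
U12: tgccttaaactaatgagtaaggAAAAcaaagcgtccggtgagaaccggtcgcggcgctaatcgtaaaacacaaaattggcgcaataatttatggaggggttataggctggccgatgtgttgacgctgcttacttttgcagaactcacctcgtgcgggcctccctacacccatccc

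Among protein-coding genes, several were far lower with oligo(dT) and, in some of its libraries, at or near 0. AT2G31141 (528 bases, uncharacterised) had 61.4, 44.3, 1.47 and 37.2 normalised CPM with oligo(dT), against 2628, 3089, 4798 and 3232 with random hexamers; it overlaps AT2G31140 and AT2G31150 on the opposite strand. RHA2B (AT2G01150), a RING-type ubiquitin ligase of abscisic acid responses, had 59.3, 18.9, 52.1 and 1.09 normalised CPM with oligo(dT), against 3844, 496, 3197 and 1766 with random hexamers. AT1G66220, a subtilase, had 47.4, 27.8, 0 and 30.6 normalised CPM with oligo(dT), against 3619, 830.5, 651 and 1751 with random hexamers. MYB120 (AT5G55020), a transcription factor that pollen tubes need to discharge their sperm, had 161, 17.2, 0 and 1.09 normalised CPM with oligo(dT), against 2969, 707, 512 and 1996 with random hexamers, a log2 fold change of -7.26 ± 0.82 (edgeR adjusted p = 5.21e-16). The groups did not overlap in any of these 4 genes, as in 16.0% of all genes tested in this direction. DAF1 and AT5G07430, also among the 12 leading genes in this direction, were lower at -3.13 ± 0.31 and -3.16 ± 0.34. Of the 256 genes called lower, 21 had no count in any oligo(dT) library and 177 had none in at least 1 of them, most often in replicates 3 (146 genes) and 4 (125). Among the 12278 genes not past the threshold, 261 had none in any oligo(dT) library and 10311 none in at least 1. A 0 in at least 1 oligo(dT) library was therefore not particular to the genes called lower. Over the 256 the log2 fold changes ran from -11.0 to -0.93 with a median of -5.20, and the most negative depend on how 0 counts are treated.

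Cell wall genes of pollen, which build and remodel the wall at the growing tip, were lower in 9 and higher in 1 (VGD1) of 16 tested. Over all genes tested, 2.04% were lower and 0.175% higher, shares not matched for level or length. The cell wall genes had a median transcript length of 2272 bases. Of protein-coding genes of 2180 to 2519 bases with a mean of at least 200 CPM, 22 of 59 were lower and 2 higher. With a mean of at least 50 CPM, 27 of 360 genes of 2075 to 2394 bases were lower and 1 higher. The median log2 fold change of the 16 was -1.60, beside -2.41 over all genes tested. When genes with a mean of at least 50 CPM were fitted alone, the cell wall median was -1.12, beside -0.67 over all genes so fitted. Without replicate 1, 4 cell wall genes were lower and 0 higher. The pollen leucine-rich repeat extensins LRX8 to LRX11, wall proteins that bind RALF peptides, were lower in 4 of 4, at -3.29 ± 0.21, -2.44 ± 0.23, -3.39 ± 0.35 and -1.98 ± 0.40. They were grouped after their values had been seen and make up 4 of the 9 cell wall genes called lower. Their median transcript length was 3030 bases, and 20 of 58 genes of 2520 to 3049 bases with a mean of at least 200 CPM were lower. LRX8 had 4973, 1589, 769 and 2147 normalised CPM with oligo(dT), against 41123, 10520.2, 9436 and 29632 with random hexamers, and LRX10 (AT2G15880) had 1518, 439, 449.5 and 235 against 11731, 3214, 3029 and 8542. For both genes the groups did not overlap, as in 16.0% of all genes tested in this direction. The ratio of random hexamer to oligo(dT) within pairs was 6.62 to 13.8 for LRX8 and 6.74 to 36.3 for LRX10. SKS11 (AT3G13390) and SKS13 (AT3G13400), multicopper oxidase-like wall proteins, were lower at -3.12 ± 0.37 and -0.99 ± 0.19. The cellulose synthase-like genes CSLD1 (AT2G33100) and CSLD4 (AT4G38190), needed for tube growth, and CALS5 (AT2G13680), a callose synthase, were lower at -4.83 ± 1.00, -4.20 ± 0.81 and -2.82 ± 0.68. Among the 10 most abundant genes of the random-hexamer libraries, AT3G28750 (uncharacterised), AT5G19580 (glyoxal oxidase-related), BGAL11 (AT4G35010, a beta-galactosidase), AT3G01270 (a pectate lyase) and AT3G07820 (a pectin lyase-like protein) were lower as well, at -2.37, -2.39, -1.18, -1.67 and -1.25.

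Receptors and signalling proteins of the pollen tube were lower in 7 and higher in 0 of 22 tested. Over all genes tested 2.04% were lower, a share not matched for level or length. These receptor and signalling genes had a median transcript length of 2193.5 bases. Of protein-coding genes of 2180 to 2519 bases with a mean of at least 200 CPM, 22 of 59 were lower, with a median of -1.32. With a mean of at least 50 CPM, 27 of 360 genes of 2075 to 2394 bases were lower, with a median of -1.51. The median of the receptor and signalling genes was -2.88, beside -2.41 over all genes tested. When genes with a mean of at least 50 CPM were fitted alone it was -1.49, beside -0.67. Without replicate 1 edgeR called 0 of these receptor and signalling genes, and without replicate 2 it called 3. Over all 4 pairs limma called 12 lower and 1 higher. BUPS1 (AT4G39110), a receptor kinase that perceives RALF peptides and holds the tube intact, had 1310.3, 361, 117 and 478 normalised CPM with oligo(dT), against 6422, 1802, 1484 and 4616 with random hexamers. Its log2 fold change was -2.88 ± 0.42 (edgeR adjusted p = 3.68e-09), and the groups did not overlap, as in 16.0% of all genes tested in this direction. ANX1 (AT3G04690), its partner kinase, had 332, 89.9, 0.733 and 90.7 normalised CPM with oligo(dT), against 1586, 395, 300.1 and 1141 with random hexamers, lower in each pair. PRK6 (AT5G20690), a receptor of the pistil's LURE attractants, PRK1 (AT5G35390) and PRK2 (AT2G07040) were lower at -2.87 ± 0.67, -4.19 ± 0.87 and -3.23 ± 0.95, as were the calcium-dependent kinases CPK24 (AT2G31500) and CPK34 (AT5G19360) at -2.34 ± 0.61 and -4.39 ± 1.04. Transport proteins were lower in 3 of 9 tested (median -4.05): the potassium channel SPIK (AT2G25600) at -6.76 ± 1.15, the calcium pump ACA9 (AT3G21180) at -2.12 ± 0.52 and the proton pump AHA8 (AT3G42640) at -0.93 ± 0.26. AHA8 had the smallest change of any gene called lower in these libraries. Without replicate 1, or without replicate 2, 1 transport gene was lower. Of 12 pollen transcription factors tested, MYB120 was lower and the other 11 did not pass (median -4.21; 2 were lower without replicate 3), and of 12 actin and actin-binding genes the villin VLN5 (AT5G57320) was lower at -8.98 ± 2.38 (median -1.63), a call that was lost without replicate 1, 2 or 4. Heat shock and folding genes had 4 lower of 16 tested (median -1.74), namely HSP70-4 (AT3G12580), HSC70-3 (AT3G09440), HSP101 (AT1G74310) and HSP90.1 (AT5G52640), at -4.95 ± 0.69, -6.86 ± 1.29, -3.44 ± 0.96 and -2.63 ± 0.58. Without replicate 1, 1 heat shock gene was lower, and without replicate 2, 2 were.

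Genes of the machinery that makes, binds and removes poly(A) tails mostly did not pass the threshold. Of 15 genes of cleavage and polyadenylation tested, FIPS5 (AT5G58040), a scaffold subunit of the complex, was lower with 3.41, 30.6, 0 and 0 normalised CPM with oligo(dT), against 163, 254, 299 and 124 with random hexamers, and the median of the 15 was -3.35. That call was lost without replicate 1 or replicate 2. Of 15 genes of deadenylation and mRNA decay (median -3.67), 0 passed in edgeR, with 5 at an unadjusted p under 0.05, while limma called 6 lower and DESeq2 8. Of 9 genes for poly(A)-binding proteins (median -2.91), 0 passed in edgeR, with 2 at an unadjusted p under 0.05, while limma called 3 lower and DESeq2 4. All 9 poly(A)-binding protein genes had negative values, but so did 10493 of all 12556 genes tested. PAB7 (AT2G36660) stood at -3.82 ± 1.34 and PAB5 (AT1G71770), a pollen form, at -2.56 ± 1.1 (edgeR adjusted p = 0.116 and 0.218). These medians lay near or below that of all genes tested.

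Groups of short housekeeping genes had medians above that of all genes tested, and 0 of their listed members passed the threshold in edgeR; the L41 genes described above are not in the 60S list, which was drawn from other wording in RefSeq. The 56 tested genes for 60S ribosomal proteins had a median log2 fold change of 0.23, the 37 histone genes 0.01 and the 20 genes for 40S ribosomal proteins -0.77, with 30, 20 and 5 members positive. The 60S median ran from 0.08 with limma to 0.88 without factors, and the histone median was -0.23 with limma, and the 60S median was -0.15 without replicate 1, so no direction against 0 is given for either. At an unadjusted p under 0.05 edgeR had 5 of the 60S genes, 1 histone gene and 2 of the 40S genes. limma called 2 of the 60S genes higher and 3 lower, 1 histone gene higher and 0 lower, and 1 of the 40S genes higher and 1 lower. DESeq2 called 5 of the 60S genes higher and 2 lower, 3 histone genes higher and 2 lower, and 1 of the 40S genes higher and 3 lower. The median transcript lengths of the 3 groups were 862, 794 and 931 bases, against 1819 over all genes tested. Translation elongation factors, which are longer at 2263 bases, had a median of -1.33 over 5 genes, with EEF2 (AT1G56070) at -2.42 ± 0.82.

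Among markers of other cells the tubes might carry, those of pistil and sperm were low with both primers, while photosynthesis genes held up to 1.2% of gene counts in replicate 3. Summed over 10 pistil genes, counts made up 0.0179% to 0.0866% of gene counts with oligo(dT) and 0.0156% to 0.0575% with random hexamers, highest in replicate 2 with both; 6 of the 10 were tested and 0 passed in edgeR (0 at an unadjusted p under 0.05, 0 in limma and 1 lower in DESeq2), with AG (AT4G18960), the floral C-class gene, at 1.88 ± 1.79. The 10 genes of sperm cells, which travel inside the tube, made up 0.0235% to 0.0804% with oligo(dT) and 0.0158% to 0.0560% with random hexamers, and 0 of 5 tested passed in edgeR, limma or DESeq2 (0 at an unadjusted p under 0.05), among them GEX1 (AT5G55490) at -0.42 ± 0.85; their median of -0.42 turned to 0.04 with upper-quartile factors, so it has no stable sign. Photosynthesis genes, 21 in all, made up 1.2% of gene counts with oligo(dT) and 0.675% with random hexamers in replicate 3, and 0.0532% to 0.148% and 0.0260% to 0.0695% in the other replicates. Of 16 tested, LHCB1.3 (AT1G29930), a light-harvesting protein, was lower at -8.29, and the median was 0.12. Replicate 3 thus held more counts of photosynthesis genes than the other replicates, with both primers. Without replicate 3 the call of LHCB1.3 AT1G29930 was lost, at -6.20 (edgeR adjusted p = 0.433), as it was without replicate 1, and the median was -0.45. Over all genes, 27 were higher and 221 lower without replicate 3.

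**Figure D3:**
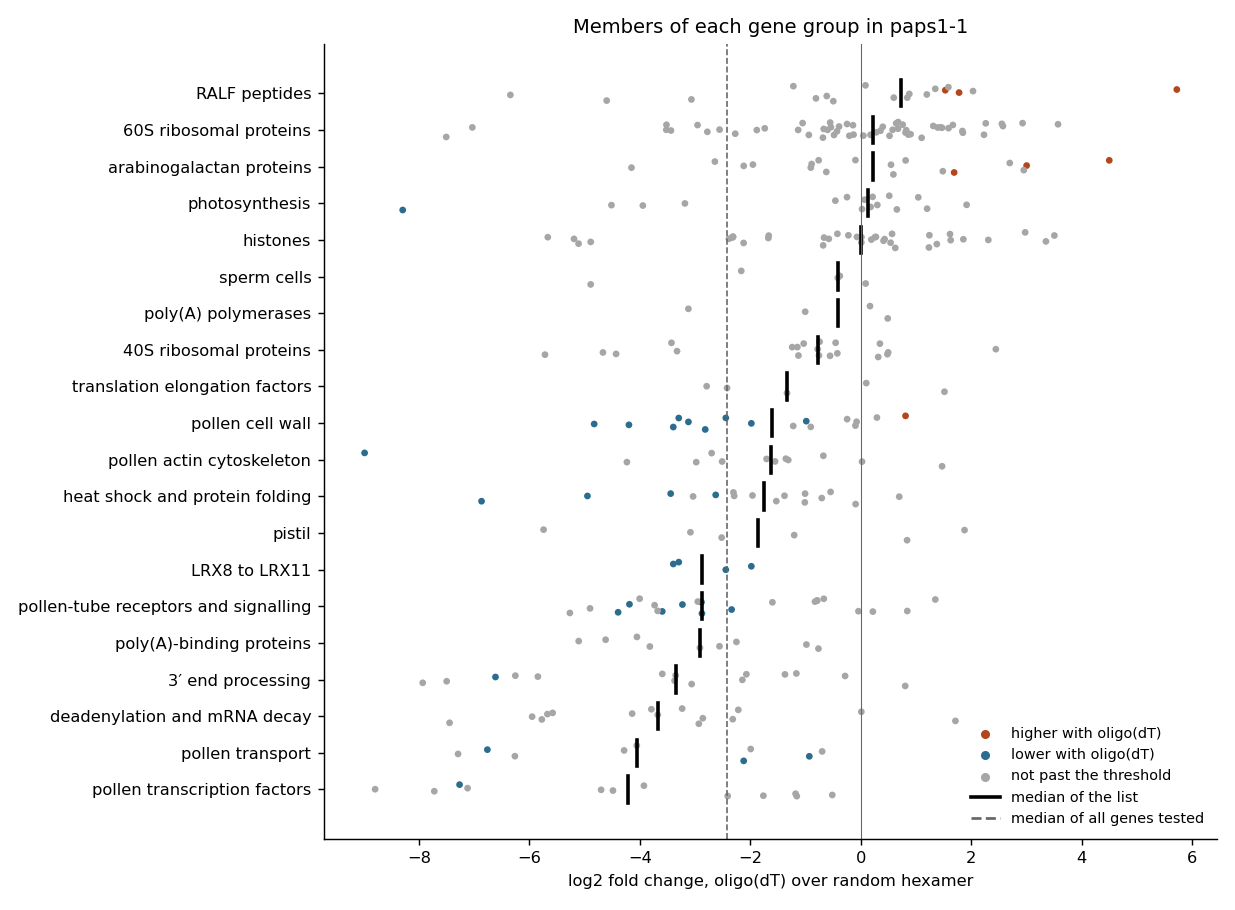
Log2 fold change (oligo(dT) over random hexamer) of each tested member of the gene groups in paps1-1, with calls coloured, a black bar for the median of each group and a dashed line for the median of all genes tested (-2.41). RALF peptides, at a median of 0.72, lie at the top and pollen transcription factors, at -4.21, at the bottom.

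Transcript length separated the 2 directions. The 22 genes higher with oligo(dT) had a median transcript length of 664 bases, and 18 (81.8%) were under 1000 bases; the 256 lower ones had a median of 2583 bases with 14 (5.47%) under 1000, and the genes not past the threshold 1810 bases with 11.6% under 1000. Of the 22, 16 (72.7%) encoded proteins of at most 100 residues, against 0.413% of the protein-coding genes called lower and 2.90% of those not past the threshold. A single exon was annotated for 13 of the 22 (59.1%), against 13.6% of those lower and 11.0% of those not past. Over 3602 protein-coding genes with a mean of at least 50 CPM, log2 fold change and transcript length had a Spearman rho of -0.56 across genes, which share libraries and are not independent replicates. It was -0.58, -0.61, -0.40 and -0.25 in pairs 1 to 4, and -0.39 over all 12364 protein-coding genes tested. In the shortest 10% of the 3602 genes (246 to 858 bases) the median log2 fold change was 0.88 and 73.1% of genes were positive. In the longest 10% (3784 to 16444 bases) the median was -3.06 and 1.66% were positive, and the medians decreased at every step between. Mean level and the log2 fold change had a Spearman rho of 0.12 over the 3602 genes and of 0.40 over all 12364, so over all genes level was related to the contrast about as closely as length.

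**Figure D4:**
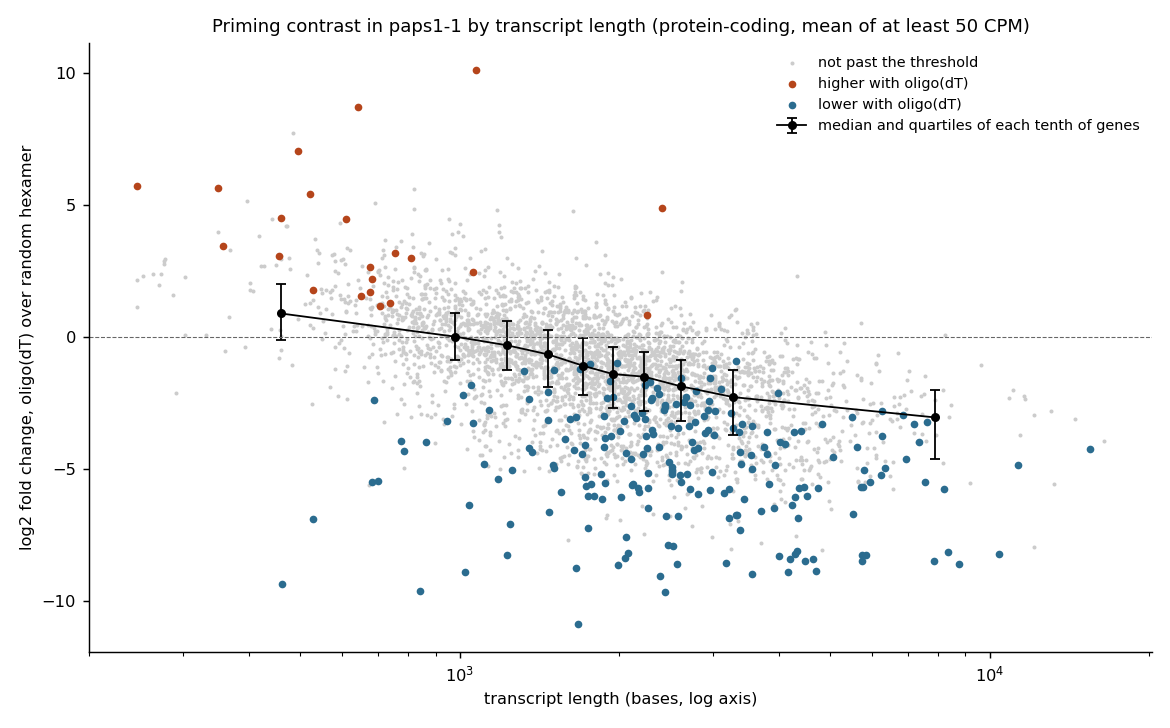
Log2 fold change (oligo(dT) over random hexamer) against transcript length (bases, log axis) for protein-coding genes with a mean of at least 50 CPM in paps1-1, with called genes coloured and the median and quartiles of each 10% of genes by length in black. The median is 0.88 in the shortest 10% and -3.06 in the longest.

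Runs of adenosine inside the transcript tracked the contrast less than length did. The log2 fold change had a Spearman rho of -0.15 with the longest run of A in the transcript and -0.35 with that in the coding sequence over the 3602 genes, and of -0.26 with GC content. The 1052 genes whose longest run was 3 to 5 bases had a median log2 fold change of -0.63. It was -1.41 for the 1507 genes with 6 to 7 bases and -1.36 for the 585 with 8 to 9. The 330 genes with 10 to 12 bases had -1.23 and the 128 with 13 to 21 bases -1.24, so it did not fall steadily with longer runs. Genes with long runs were longer, with a median of 2250 bases at 13 to 21 A against 1421 bases at 3 to 5 A, and the 2 properties were not separated. The 22 genes called higher had a median longest run of 6 bases, as did the genes not past the threshold.

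The same contrast was then fitted in WT, which shares no library with paps1-1. Of 6404 genes tested there, 9 were higher and 54 lower with oligo(dT) (0.141% and 0.843%, or 0.984% in all). Of the 22 genes higher in paps1-1, 19 were tested in WT, 18 had a positive value there and 7 passed the threshold; of the 256 lower, 242 were tested, 241 were negative and 45 passed. Over the 6243 genes tested in both genotypes, 5052 had the same sign. Negative values prevailed in both genotypes, at 10493 of 12556 genes tested in paps1-1 and a median log2 fold change of -1.94 in WT. A shared negative sign is therefore no gene-specific agreement by itself. AGP23 had 38192, 12633, 809 and 10916 normalised CPM with oligo(dT) in WT, against 672, 546, 654 and 615 with random hexamers, and a log2 fold change of 3.94 ± 0.62, beside 4.50 ± 0.25 in paps1-1. LRX8 gave -3.29 ± 0.21 in paps1-1 and -3.14 ± 0.48 in WT, and BUPS1 -2.88 ± 0.42 and -3.22 ± 0.75. For each of these 3 genes the estimates differed by less than the SE in WT. Other leading genes lay further apart, such as VGD1 at 0.81 ± 0.15 in paps1-1 and 2.12 ± 0.32 in WT and RHA2B at -6.38 ± 0.63 and -8.31 ± 0.67, and the interaction did not pass the threshold for either (edgeR unadjusted p = 0.319 and 0.00388, adjusted p = 1.00 for both). Length behaved alike, with a Spearman rho of -0.56 in paps1-1 and -0.49 in WT over 3172 genes.

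Whether priming favoured other transcripts in paps1-1 than in WT was tested by the interaction over all 16 libraries. It called 0 of 14190 genes (0.00%) in edgeR, where 231 had an unadjusted p under 0.05, and 4 genes with DESeq2 size factors in the same test. WT oligo(dT) library 3 held 70006 gene counts, and without the WT replicate 3 pair 2 genes were called. The interaction genes of smallest p were largely ones that were at or near 0 in single groups. NUDT21 (AT1G73540), a nudix hydrolase, had a log2 fold change of -2.46 ± 1.35 in paps1-1 and -11.67 ± 2.84 in WT, and U1.5 -9.46 ± 1.48 and -0.44 ± 1.94. GRP5 was higher in paps1-1 at 2.47 ± 0.58 and stood at -0.09 ± 1.62 in WT, a difference of 3.18 ± 1.66 in the fit over 16 libraries (edgeR unadjusted p = 0.0547, adjusted p = 1.00). Missing the threshold does not show that the genotypes act alike: the SE of the interaction was 0.81 even for AGP23 and 1.08 for BUPS1 on the log2 scale.

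**Figure D5:**
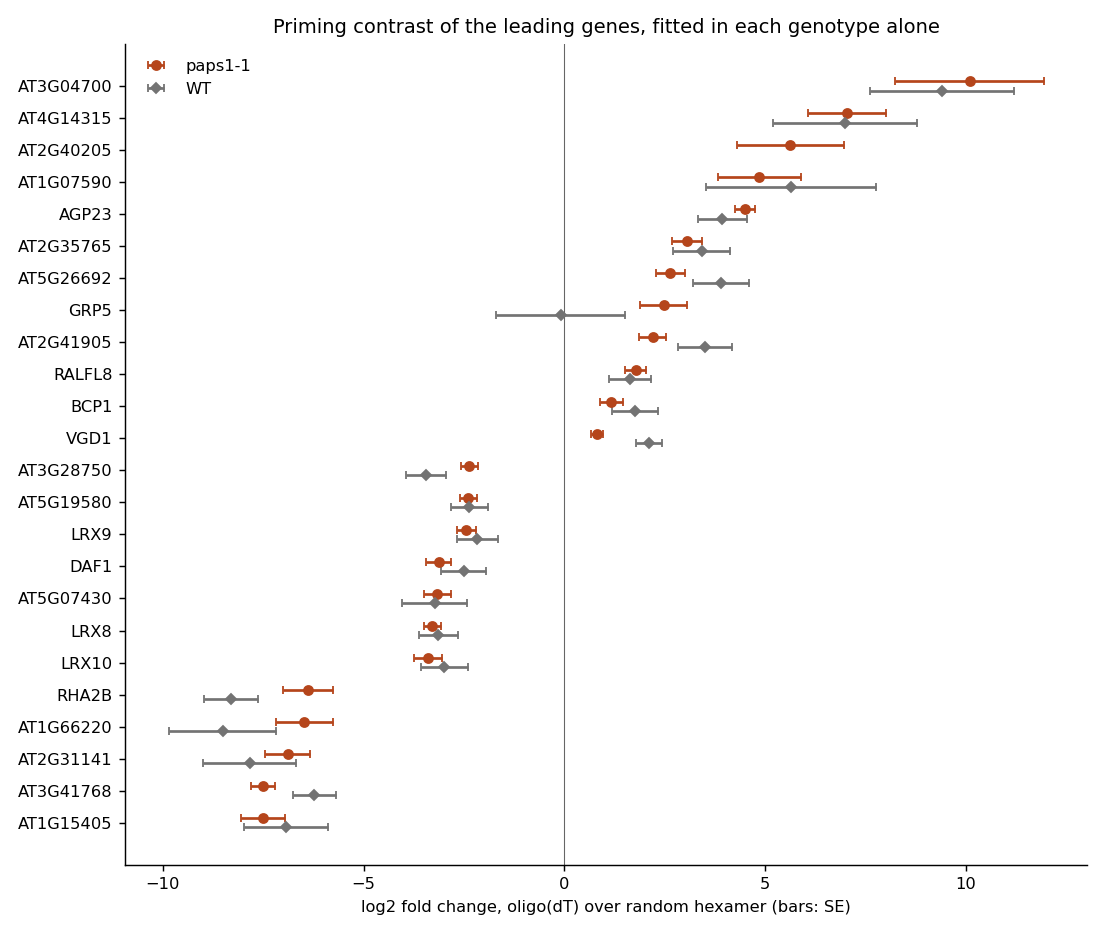
Log2 fold change (oligo(dT) over random hexamer) with SE for the 24 leading genes, fitted in paps1-1 (circles) and in WT (diamonds) alone, with AT2G40205 not tested in WT. Of the 23 genes with both values, GRP5 is the exception to the shared sign, at 2.47 in paps1-1 and -0.09 in WT.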

How the data were processed

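The deposited tables hold raw read counts per gene in 3 columns (without regard to strand, and for each strand), aligned with STAR to TAIR10, per the submitters' processing notes; for the STAR version, the trimming and the annotation release, nothing is stated in the sources read. Counts on the gene strand were used, without the rows of unmapped, multimapping, featureless and ambiguous reads, which held 61.4% to 96.2% of the reads of the 8 paps1-1 libraries. Of 33323 gene IDs, 32835 matched RefSeq TAIR10.1, which gave names, lengths, sequences and the overlaps between genes; none of its coordinates are printed.

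Genes were tested with edgeR 4.0.16 (quasi-likelihood test, TMM, filterByExpr with a minimum count of 10, R 4.3.3) on the 8 paps1-1 libraries with the RNA sample as block, adjusted by Benjamini-Hochberg over all genes tested, at a threshold of 0.05. The prior degrees of freedom of edgeR and of moderated limma were infinite, so genes of a level shared 1 spread. The labels say that each RNA was split, and libraries of the same number deviated together, with correlations of 0.509, 0.456, 0.400 and 0.258 over 3607 genes. SEs are the size of the log2 fold change over the square root of the F statistic. A fold for 1 to 3 pooled counts is a ratio of pooled counts with a 95% counting interval. The WT contrast used the same fit, and the interaction a fit over 16 libraries. Libraries of a group differed by more than sampling noise (chi-square per degree of freedom at least 19.5). The fits were tested on simulated data, where edgeR found few of the changed genes and called no unchanged one, limma with the spread of each gene alone found none, and DESeq2 also called unchanged genes. The simulated counts were drawn from the spread that edgeR had fitted, with no pair effect, no general shift between primers and no missing transcripts. They cannot show how often edgeR or DESeq2 errs in these libraries. Since edgeR found few changed genes even there, a count of 0 in edgeR says little. The calls of DESeq2 are given for comparison only.

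Named genes were the 12 of smallest p per direction whose mean log2 CPM was 3 or more and whose sign was shared by 4 of 4 pairs, the 10 most abundant with each primer, the PAPS genes, the 4 tested members of smallest p in a list, and the 5 of smallest p in each direction of the interaction. Other genes were named after their values were seen. The members and lists were chosen with earlier results of these data known. Ribosomal proteins were assigned by RefSeq descriptions, with wording adapted after the tables were read. Alternatives were DESeq2 1.42.0 and limma 3.58.1, other size factors and filters, counts without regard to strand, no block, all 16 libraries, and each replicate left out; total-count scaling and limma, with moderation and with the spread of each gene alone (3 residual degrees of freedom), were added after seeing the data.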

Additional observations from a re-analysis of the deposited data

Results flagged for a closer look

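Of 128 groups of 4 libraries checked, 16 held 1 library whose gap to its nearest neighbour was a large part of the whole range. The cutoff marks about 1 in 20 groups of independent, normally distributed values. These groups hold untransformed levels and shares from the same libraries, and some genes were picked by their values. The count of 16 therefore cannot be set against that rate. Oligo(dT) library 1 was far above the other 3 for AGP23 (42004 normalised CPM, others 5728 to 11855), AT2G41905 (14274, others 2279 to 4189), AT2G35765 (12114, others 2156 to 3639) and LRX10 (1518, others 235 to 449.5). The same library was low in its share of gene counts from 3′ end processing genes, at 0.00884%, against 0.0386% to 0.0423% in the others. PAPS1 was high in oligo(dT) library 3, at 162 normalised CPM with the others at 49.2 to 62.5. AT3G04700 was at 1.49 normalised CPM in random-hexamer library 3, the worth of 1 count, and at 0 in the others.

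Oligo(dT) library 4 differed in its mapping. Multimapping reads were 34.3% of its mapped reads (2.61% to 5.16% in the others), reads in genes 11.6% (76.2% to 86.9%) and reads on the opposite strand 19.9% (4.80% to 5.61%). Random-hexamer library 4 had 44.1% unmapped reads, against 22.9% to 25.9% in the others.

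Both libraries of an RNA sample were high in 2 marker groups. Photosynthesis genes held 1.2% of gene counts in oligo(dT) library 3 and 0.675% in random-hexamer library 3, against 0.0532% to 0.148% and 0.0260% to 0.0695% in the others. Pistil genes held 0.0866% in oligo(dT) library 2 and 0.0575% in random-hexamer library 2, against 0.0179% to 0.0235% and 0.0156% to 0.0179%. Heat shock and folding genes held 0.500% of gene counts in oligo(dT) library 2, against 0.274% to 0.301% in the others.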

How the results depend on the processing

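Beside 22 genes higher and 256 lower with oligo(dT), DESeq2 size factors gave 38 and 275, upper-quartile factors 52 and 169, no filter 13 and 88, a mean of at least 50 CPM 7 and 13, the DESeq2 Wald test 145 and 3349, all 16 libraries 4 and 36, counts without regard to strand 16 and 152, replicates 1 and 2 alone 479 and 1036, total gene counts without factors 94 and 168, limma 90 and 2101, and limma with the spread of each gene alone 9 and 190 (2334 genes at an unadjusted p under 0.05). Without the replicate block, which ignores that each RNA was split, 3 were higher and 15 lower, and the difference in genes detected (-7562) had an exact p of 0.0286 in place of 0.125. Leaving out 1 replicate gave 1 to 55 genes higher and 26 to 221 lower. The causes were not tested. Of the genes called lower, limma shared 256, the DESeq2 Wald test 229 and limma with the spread of each gene alone 32. The interaction of genotype and priming called 0 genes, 4 with DESeq2 size factors and 2 without WT replicate 3, the single replicate left out of that test. With 1 replicate left out, AT2G47050 ran between -0.0214 and 0.53 and PAPS4 AT4G32850 between -0.00142 and 0.48. The median log2 fold change of sperm cells turned positive (0.0401 with upper-quartile factors, 0.31 at a mean of at least 50 CPM, 0.11 without factors). Of 895 single-gene values under alternatives, 631 kept direction and call, 250 lost the call, 12 gained it and 2 reversed. Of 320 list medians, 296 moved by less than the replicate spread, 21 by more and 3 reversed. The length correlation was -0.62 to -0.50 under all alternatives run. Oligo(dT) libraries 3 and 4 held 718090 and 568602 gene counts, where 3 counts are worth 4.18 and 5.28 CPM, so lower levels were not detectable there.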
